A study of Mus musculus with 7 samples.

Results

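The SR proteins and the heterogeneous nuclear ribonucleoproteins (hnRNPs) are the abundant nuclear RNA-binding proteins that choose between splice sites. The genes described here are all those whose symbol is Srsf or Hnrnp followed by letters or digits, a rule on the name alone, and it took 31 of the 48321 genes in the count files, 11 of them Srsf and 20 Hnrnp. The members were chosen by name, but the family and Srsf7 as its leading gene were selected on the EB and vehicle values of these same libraries, so the counts of its members below describe it and test nothing about it. The measurement was bulk RNA sequencing of the VMHvl, the ventrolateral division of the ventromedial hypothalamus, where many neurons express estrogen receptor α. The tissue came from ovariectomized female mice, 4 of them 4 h after a subcutaneous injection of 1 µg of estradiol benzoate (EB), a long-acting estrogen ester, and 3 after vehicle. All 7 mice were of mixed background with 129/Sv ancestry, descended from a floxed Esr1 line, and each library came from a single mouse. The labels do not give the mice's age or their Esr1 genotype. The nucleus was dissected by hand, so the libraries hold every cell type of the block.

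SR proteins carry 1 or 2 RNA recognition motifs followed by a domain rich in arginine and serine. They bind exonic enhancers and recruit the spliceosome, and kinases of the CLK and SRPK families phosphorylate that domain and so set where the proteins sit in the nucleus. hnRNPs coat nascent transcripts and often oppose SR proteins at the same exons. Many genes of both families hold a poison exon or a retained intron through which the protein lowers its own mRNA, and the present counts are per gene and do not separate those forms.

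Srsf7 was the single gene of the family that passed the test, and it rose with EB. SRSF7, also called 9G8, is an SR protein with a zinc knuckle that regulates splicing and polyadenylation and serves as an adaptor for mRNA export. Its level, in CPM (counts relative to the library's TMM-scaled total), was 156, 130, 139 and 144 in EB mice 1 to 4, against 114, 113 and 97.8 in vehicle mice 1 to 3. Every EB mouse stood above every vehicle mouse, and the lowest EB value exceeded the highest vehicle value by 14.3%. The means were 142 ± 10.7 CPM with EB and 108 ± 8.97 CPM with vehicle (SD, n = 4 and 3). The fold change was 1.31, or 0.39 ± 0.08 on the log2 scale (SE; 95% interval 0.22 to 0.57), with an adjusted p of 0.0387 in edgeR's quasi-likelihood test (Benjamini-Hochberg over 18387 genes; called under 0.05). This value stands near the threshold. Of 18 alternative settings 10 kept the call and 8 lost it, with log2 changes of 0.32 to 0.44, all positive. The call was lost without vehicle 3 (log2 0.32, adjusted p = 0.207), without EB 1 (0.35, adjusted p = 0.153), without EB 4 (adjusted p = 0.0937), without EB 3 (adjusted p = 0.0753) and without vehicle 1 (adjusted p = 0.0607). On all 7 mice it was also lost with limma-voom (adjusted p = 0.0592). The same held for edgeR without robust estimation (adjusted p = 0.0542) and with library totals alone (adjusted p = 0.175). DESeq2 on all 7 mice gave an adjusted p of 0.000780.

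Across all 31 members, all of which passed the filter on low counts, 1 was called higher and 0 lower. Of all 18387 genes tested, 0.919% were called, 0.712% higher and 0.207% lower with EB. An unadjusted p under 0.05 was reached by 4 members, Srsf7, Srsf5, Srsf11 and Hnrnpdl, against 8.54% of all tested genes (4.69% higher). The same 4 members were those whose EB and vehicle values did not overlap, each with EB above, beside 9.1% of all tested genes in either direction and 5.11% with EB above. With DESeq2, 2 members were called higher and 0 lower, beside 1.95% of all tested genes called, 1.27% higher and 0.68% lower. With limma-voom 0 members were called, beside 0.816% of all tested genes (0.625% higher and 0.19% lower); by edgeR's unadjusted p the members with a p under 0.05 and EB lower numbered 0, beside 3.85% of all genes, and those with EB wholly below numbered 0, beside 3.99%. Since the contrast was known when the family was chosen, nothing is read from these shares. In bulk tissue, fewer cells that express a gene and less of its RNA per cell cannot be told apart.

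In GENCODE M21 (GRCm38) Srsf7 lies at chr17:80200080-80207307 on the minus strand, Srsf5 at chr12:80945504-80950507 on the plus strand, Srsf11 at chr3:158010473-158036639 on the minus strand and Hnrnpdl at chr5:100033577-100039664 on the minus strand. Exons of these 4 genes share fewer than 50 bases with any other annotated gene. The promoters of these 4 genes are printed here because theirs are the transcripts that stood apart between the groups. Each runs from 250 bases before to 50 bases after a RefSeq transcript start (GRCm38.p6), 5′ to 3′ on the gene's strand, and capitals mark the GC box GGGCGG or its reverse complement. The windows are chr17:80207256-80207555 (minus strand) for Srsf7, chr12:80945249-80945548 (plus) for Srsf5, chr3:158036557-158036856 (minus) for the upstream start of Srsf11, and chr5:100039173-100039472 (minus) for Hnrnpdl.
Srsf7: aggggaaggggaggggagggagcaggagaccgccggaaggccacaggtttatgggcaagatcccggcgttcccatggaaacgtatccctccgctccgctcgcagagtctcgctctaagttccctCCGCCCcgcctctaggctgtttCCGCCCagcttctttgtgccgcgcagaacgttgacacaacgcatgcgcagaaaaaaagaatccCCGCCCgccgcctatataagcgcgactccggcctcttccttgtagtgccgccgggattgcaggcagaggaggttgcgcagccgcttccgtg
Srsf5: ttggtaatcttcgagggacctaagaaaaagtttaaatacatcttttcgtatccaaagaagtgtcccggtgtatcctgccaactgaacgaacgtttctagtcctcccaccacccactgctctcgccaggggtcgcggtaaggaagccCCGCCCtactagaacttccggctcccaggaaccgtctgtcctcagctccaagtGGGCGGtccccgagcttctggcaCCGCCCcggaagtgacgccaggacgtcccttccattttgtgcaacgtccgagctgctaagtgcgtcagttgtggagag
Srsf11: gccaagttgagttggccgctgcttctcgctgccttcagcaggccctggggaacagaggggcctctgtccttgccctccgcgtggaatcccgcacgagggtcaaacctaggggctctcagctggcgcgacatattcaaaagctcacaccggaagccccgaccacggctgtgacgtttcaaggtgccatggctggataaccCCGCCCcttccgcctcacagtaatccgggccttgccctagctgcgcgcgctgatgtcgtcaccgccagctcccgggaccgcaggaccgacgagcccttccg
Hnrnpdl: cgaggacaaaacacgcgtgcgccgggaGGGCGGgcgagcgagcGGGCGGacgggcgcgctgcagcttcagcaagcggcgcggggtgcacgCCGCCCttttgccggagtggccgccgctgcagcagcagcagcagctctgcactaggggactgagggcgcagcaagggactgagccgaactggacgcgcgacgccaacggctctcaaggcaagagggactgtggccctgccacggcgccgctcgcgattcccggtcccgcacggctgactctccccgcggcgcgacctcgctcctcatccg

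The Srsf7, Srsf5 and Hnrnpdl windows hold 3 GC boxes each and the Srsf11 window holds 1. RefSeq promoters were found for 29 of the 31 members, 41 windows in all, out of 32851 in the table; Hnrnpll and Hnrnpul2 had no entry. On either strand GGGCGG was found in 34 of the 41 windows (82.9%) and in 35.7% of all windows. The members' windows were also richer in G and C, with a median of 68.3% against 52.7% over all windows, and held a median of 31 CpG dinucleotides against 7. The palindromic estrogen response element, GGTCANNNTGACC, was found in 0 of the 41 and in 0.0700% of all windows. Its single arm GGTCA, a short motif, was found in 51.2% of the members' windows and 40.5% of all. Among the 4 genes it was in the Srsf11 window alone, beginning at position -153 from the start. CCAAT was found in 51.2% and 37.4%, TATAAA in 9.76% and 13.6%, and TGACGTCA, the cAMP response element, in 0 of the 41 and 1.79%. These are matches of letters, not measured sites.

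**Figure D1:**
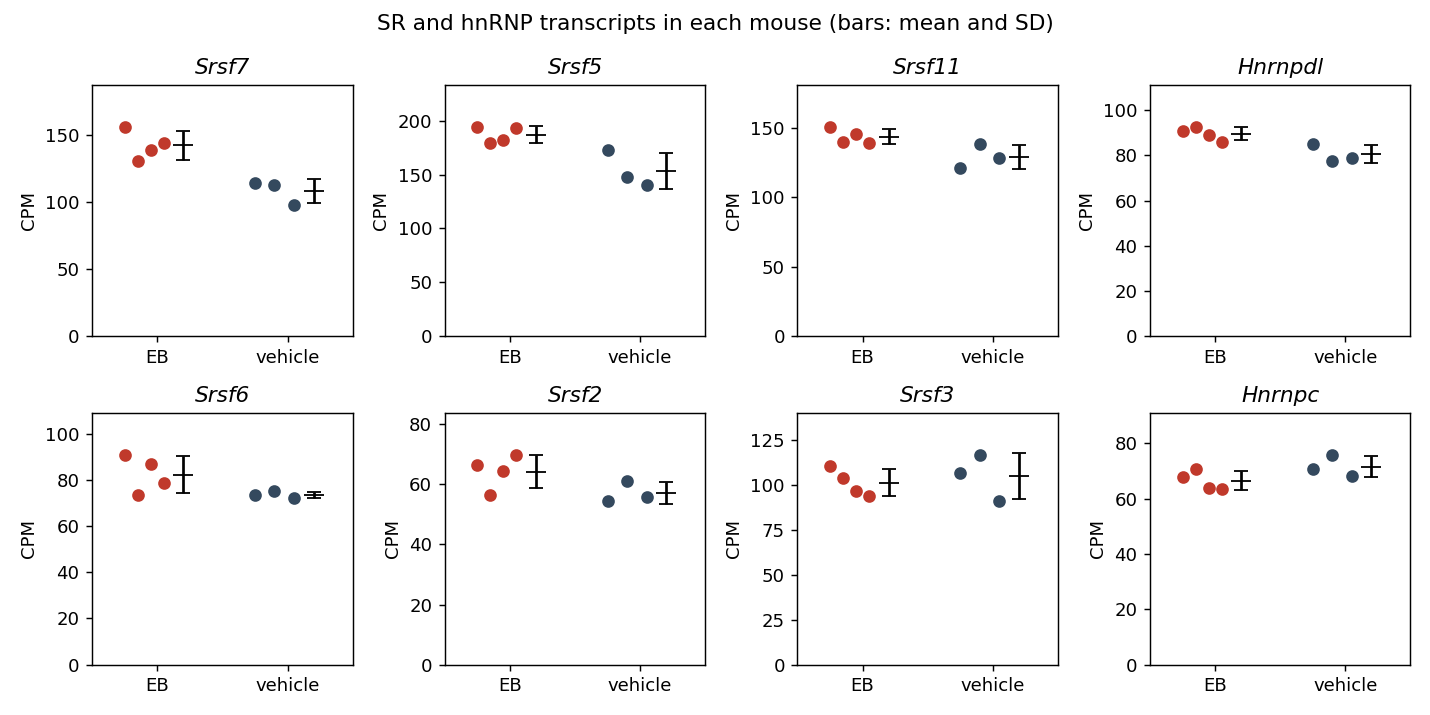
Level in each mouse of 8 SR and hnRNP genes, in CPM, with EB mice (red) left of vehicle mice (blue) and the mean and SD as bars. Srsf7 shows EB values of 130 to 156 CPM above vehicle values of 97.8 to 114 CPM, Srsf5, Srsf11 and Hnrnpdl show narrower gaps, and the groups overlap for Srsf6, Srsf2, Srsf3 and Hnrnpc.

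In the class of SR genes with a single RNA recognition motif, from which the SR-like genes were kept apart, Srsf3 and Srsf2 were not called. Srsf3, the closest relative of Srsf7 and likewise an export adaptor, had 111, 104, 96.4 and 93.9 CPM in EB mice, against 106, 116 and 91.1 CPM in vehicle mice; it was added for this comparison after its values were seen. Its groups overlapped fully, with a log2 change of -0.05 ± 0.09 (adjusted p = 0.950, edgeR). The count of Srsf7 divided by that of Srsf3, a ratio within each library that no scaling changes, was 1.41, 1.26, 1.44 and 1.53 with EB and 1.07, 0.968 and 1.07 with vehicle. The ratio averaged 1.41 ± 0.114 with EB and 1.04 ± 0.0605 with vehicle (SD), and the groups did not overlap. Srsf7 was selected on these same values and Srsf3 was added with its values in view, so this separation is not independent of those choices. Srsf2, which encodes the classical factor SC35, had 66.5, 56.5, 64.3 and 69.7 CPM in EB mice and 54.5, 61.3 and 55.6 CPM in vehicle mice. Its log2 change was 0.17 ± 0.09 (adjusted p = 0.670, edgeR), and EB 2 lay within the vehicle range. Exons of Srsf2 overlap those of Mettl23 and Mfsd11 on the opposite strand, and whether the counting used strand is not given in the sources used here.

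Srsf5 was the highest per length of the SR genes with a pair of RNA recognition motifs. SRSF5, or SRp40, is an SR protein first described in the rat as induced in regenerating liver and by insulin. Its level was 194, 179, 182 and 193 CPM in EB mice, against 172, 148 and 140 CPM in vehicle mice. All EB values lay above all vehicle values, but the lowest EB mouse exceeded vehicle 1 by 3.80%. The means were 187 ± 7.63 CPM with EB and 154 ± 16.8 CPM with vehicle, a log2 change of 0.28 ± 0.08 (95% interval 0.12 to 0.45) with an adjusted p of 0.154 in edgeR's test. DESeq2 called it (adjusted p = 0.0296), as did edgeR without vehicle 1 (log2 0.37, adjusted p = 0.0383). The pseudogene Gm12966 matches 51.7% of the longest Srsf5 transcript at 98% identity or more and had 14.3% to 18.2% as many counts, so reads may be split between them. Gm12966 itself had 30.4 ± 2.12 CPM with EB and 23.0 ± 3.93 CPM with vehicle (log2 0.40 ± 0.12, adjusted p = 0.257, edgeR).

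Srsf6, which encodes SRp55, had 90.8, 73.5, 86.8 and 78.5 CPM with EB, against 73.3, 75.1 and 72.4 CPM with vehicle. The lowest EB mouse lay within the vehicle range, and the log2 change was 0.16 ± 0.08 (adjusted p = 0.664, edgeR). Srsf1, which encodes SF2/ASF, had 162, 143, 145 and 149 CPM in EB mice and 152, 161 and 140 CPM in vehicle mice, a log2 change of -0.01 ± 0.07. Srsf9 and Srsf4 completed the class at log2 changes of -0.06 ± 0.14 and 0.07 ± 0.21. Srsf4 was the lowest SR gene, with 5.39 to 9.18 CPM over the EB mice and 5.60 to 8.11 CPM over the vehicle mice, and the wide spread left its interval at -0.39 to 0.54. Gm12992, on the opposite strand, overlaps 43.0% of the Srsf4 exon bases, and whether the counting used strand is not given.

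Of the SR-like genes, Srsf11 was the highest per length, though its mice overlapped those of Srsf12. Srsf11, which encodes the nuclear SR-like protein p54, had 151, 140, 146 and 139 CPM with EB and 121, 138 and 128 CPM with vehicle. EB 4 exceeded vehicle 2 by 0.435%, so the separation of the groups rests on that margin. The means were 144 ± 5.56 CPM with EB and 129 ± 8.78 CPM with vehicle, a log2 change of 0.15 ± 0.07 (adjusted p = 0.566, edgeR). Srsf10, known as a splicing repressor when it loses its phosphates, and Srsf12 had log2 differences of 0.02 ± 0.08 and -0.03 ± 0.09.

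Summed over the 11 SR genes, the EB mice had 1052, 939, 975 and 985 CPM and the vehicle mice 907, 937 and 839 CPM. EB 2 lay just above vehicle 2, and the sum includes Srsf7, which was selected on these same values. Srsf7 made up 13.9% to 14.8% of the SR counts over the EB mice, against 11.7% to 12.6% over the vehicle mice. Srsf1 and Srsf10, picked for description after their values were seen, had shares with EB wholly below those with vehicle. The share of Srsf1 was 15.2% ± 0.240 with EB and 16.9% ± 0.303 with vehicle, and that of Srsf10 4.88% ± 0.310 with EB and 5.30% ± 0.102 with vehicle. Shares of 1 sum depend on each other, and the levels of Srsf1 and Srsf10 themselves had log2 differences of -0.01 and 0.02, while Srsf7 and Srsf5, part of the same sum, had higher values with EB.

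**Figure D2:**
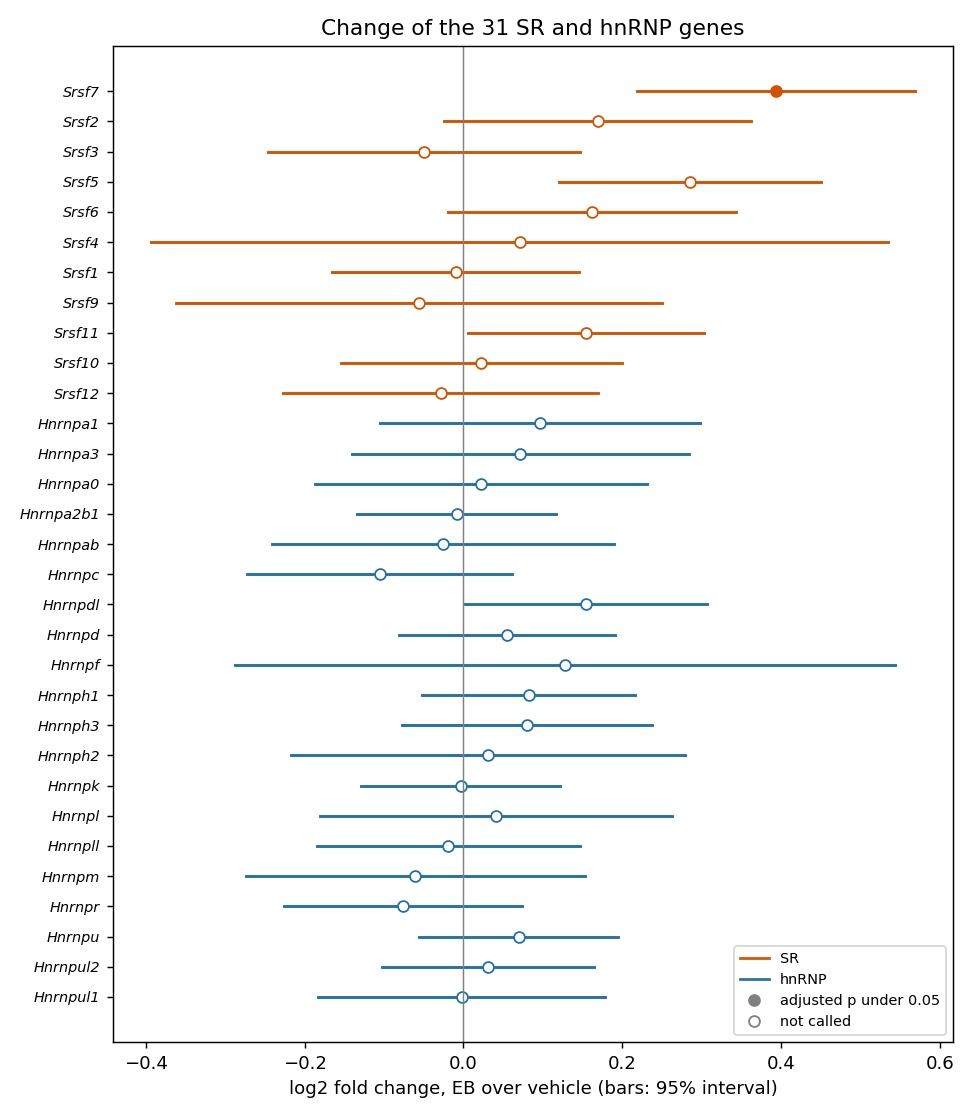
Change of each of the 31 genes on the log2 scale, EB over vehicle, with its 95% interval, ordered by class from SR (orange) to hnRNP (blue). The filled point is Srsf7 at 0.39, the gene with an adjusted p under 0.05, and the lowest point is Hnrnpc at -0.11.

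Of the 20 hnRNP genes 0 were called. Their log2 changes ran from -0.11 (Hnrnpc) to 0.15 (Hnrnpdl), with a median of 0.03 and 12 positive and 8 negative, while the median over all tested genes was -0.01. Summed, the 20 genes had 3114, 3075, 3187 and 3127 CPM in EB mice, against 3023, 3241 and 2925 CPM in vehicle mice, with both extremes in the vehicle group. Counts of SR genes as a share of SR and hnRNP counts together were 25.3%, 23.4%, 23.4% and 23.9% with EB and 23.1%, 22.4% and 22.3% with vehicle. These shares averaged 24.0% ± 0.869 with EB and 22.6% ± 0.425 with vehicle, and the groups did not overlap. The SR counts include those of Srsf7, which was selected on these same values, so this separation is not independent of that gene.

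Hnrnpdl was the hnRNP gene that came nearest to Srsf7 and Srsf5. It encodes a relative of the AU-rich element binding protein AUF1. Its level was 90.8, 92.5, 89.1 and 85.7 CPM with EB, against 85.0, 77.4 and 78.9 CPM with vehicle. EB 4 exceeded vehicle 1 by 0.792%. The means were 89.5 ± 2.92 CPM with EB and 80.4 ± 4.02 CPM with vehicle, a log2 change of 0.15 ± 0.07 (adjusted p = 0.580, edgeR). Hnrnpd, which encodes AUF1 itself, had 358 to 404 CPM in EB mice and 345 to 381 CPM in vehicle mice, and its log2 change was 0.05 ± 0.06.

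Hnrnpc, whose protein packages pre-mRNA and competes with U2AF at uridine tracts, had 67.8, 70.9, 63.9 and 63.5 CPM with EB and 70.7, 75.8 and 68.3 CPM with vehicle. It had the most negative change of the family, -0.11 ± 0.08 (95% interval -0.27 to 0.06; adjusted p = 0.803, edgeR), and the groups overlapped. Of the A/B class, whose proteins bind UAG-like silencers, Hnrnpa2b1 had 485 to 506 CPM with EB and 476 to 529 CPM with vehicle, with a log2 change of -0.01 ± 0.06. Hnrnpa1 and Hnrnpa3 had log2 differences of 0.10 ± 0.09 and 0.07 ± 0.10, and each shares near-identical sequence with pseudogenes (5 and 13 were found), so that reads may be split. Hnrnph1, which binds runs of G, had 262, 259, 264 and 260 CPM with EB and 266, 243 and 231 CPM with vehicle. The EB mice were close to each other and vehicle 1 stood above them, with a log2 change of 0.08 ± 0.06 (adjusted p = 0.813, edgeR). Hnrnph3 had a log2 difference of 0.08 ± 0.07, and Hnrnpf, the lowest gene of the family, had 4.90 to 6.91 CPM with EB and 5.28 to 5.60 CPM with vehicle.

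Hnrnpu, a scaffold protein that binds chromatin and RNA, had 525, 497, 514 and 487 CPM in EB mice and 480, 506 and 460 CPM in vehicle mice, a log2 change of 0.07 ± 0.06. Hnrnpr, which encodes an mRNA-binding protein, had 75.4 to 81.8 CPM with EB and 81.4 to 86.4 CPM with vehicle, a log2 change of -0.08 ± 0.07. Hnrnpk, which binds runs of C, had 254, 261, 270 and 258 CPM with EB and 253, 273 and 258 CPM with vehicle. It was the steadiest gene, with a highest mouse 1.08 times the lowest and a 95% interval of -0.13 to 0.12 on the log2 scale. Hnrnpll and Hnrnpm, the highest per length of the L and of the M and R classes, had log2 differences of -0.02 ± 0.08 and -0.06 ± 0.10. Adding Hnrnpf, the 7 hnRNP genes without a test result above, Hnrnpa0, Hnrnpab, Hnrnph2, Hnrnpl, Hnrnpul1 and Hnrnpul2 among them, had adjusted p of 0.942 or more in edgeR's test.

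The size of change that these data allow is narrow. The 95% interval lay within 1.5-fold in either direction for 31 of 31 members, against 82.6% of the 10285 tested genes in the same range of mean CPM. It lay within 1.25-fold for 24 of 31, 19 of the 20 hnRNP genes and 5 of the 11 SR genes, against 38.7% of those 10285 genes. The biological coefficient of variation had a median of 8.59% over the members against 12% over the 10285 genes in the members' CPM range. Those genes share only the lowest and highest mean CPM of the members, not the spread of levels between. The narrower intervals and lower variation are therefore not set apart from level. Over the members the coefficient ran from 6.89% for Hnrnpk to 20.9% for Srsf4.

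**Figure D3:**
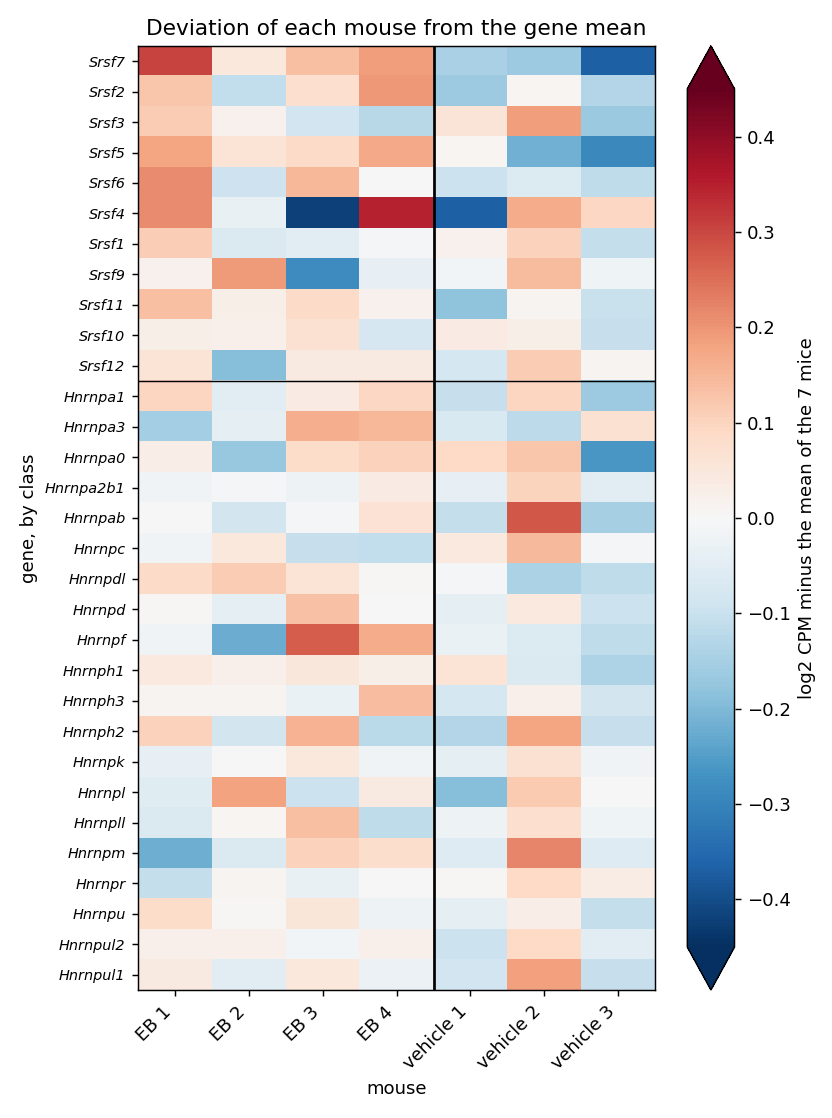
Deviation of each mouse from the mean of the 7 mice, in log2 CPM, for the 31 genes (rows, by class) and the EB mice left of the vehicle mice (columns). Vehicle 2 is red in most rows and vehicle 3 blue, and the Srsf7 row is red across the 4 EB mice and blue across the 3 vehicle mice.

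The vehicle mice differed from each other across the family. Vehicle 2 was the highest vehicle mouse for 24 of the 31 members (77.4%, against 37.4% of all tested genes), and vehicle 3 the lowest for 19 (61.3%, against 30.6%). The median deviation from the 7-mouse mean was 0.09 for vehicle 2, -0.10 for vehicle 3 and -0.05 for vehicle 1, in log2 CPM. EB 1 stood above the 7-mouse mean for 11 of 11 SR genes, with a median deviation of 0.13. The balance of directions followed which vehicle mouse was used. With all 7 mice 19 members were positive and 12 negative, median 0.03. Without vehicle 2 these were 28 and 3, median 0.09. Without vehicle 1 they were 15 and 16, median -0.01, and without vehicle 3 they were 16 and 15, median 0.01. Scaling by library totals alone gave 26 and 5. Mitochondrial transcripts took 10.2% to 22.3% of counts in EB mice and 10.9% to 28.8% in vehicle mice, with EB 1 and vehicle 1 the highest of their groups. With that share as a covariate, Srsf7 had a log2 change of 0.41 and an adjusted p of 0.0423 (edgeR).

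Per kilobase of exon the family spanned a wide range of levels. Hnrnpa2b1 led with 74.8 ± 1.44 CPM per kb with EB and 75.2 ± 4.43 with vehicle, and its lowest mouse, at 72.3, lay above the highest mouse of the next gene, Hnrnpa0, at 62.6. Hnrnpd followed at 50.2 CPM per kb over all 7 mice, then Hnrnph1 at 43.7, Srsf5 at 43.3, Hnrnpu at 42.7, Hnrnpk at 40.4 and Srsf7 at 35.9. The ranges over mice of Hnrnph1, Srsf5, Hnrnpu, Hnrnpk and Srsf7 overlapped from each gene to the next. Of the 30 neighbouring pairs in this order, 6 had separate ranges. Srsf7 stood at 40.0 ± 3.01 CPM per kb with EB and 30.5 ± 2.53 with vehicle, and Srsf5 at 46.9 ± 1.91 with EB and 38.5 ± 4.20 with vehicle. The lowest were Hnrnpr at 3.66, Srsf4 at 2.06 and Hnrnpf at 1.89 CPM per kb. Length here is the union of annotated exons, which is 22.2 kb for Hnrnpr, so a gene with long seldom-used exons is set low. For Srsf4 and Hnrnpab, 43.0% and 29.1% of the exon bases overlap a gene on the opposite strand, and the part of this in their levels was not tested.

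**Figure D4:**
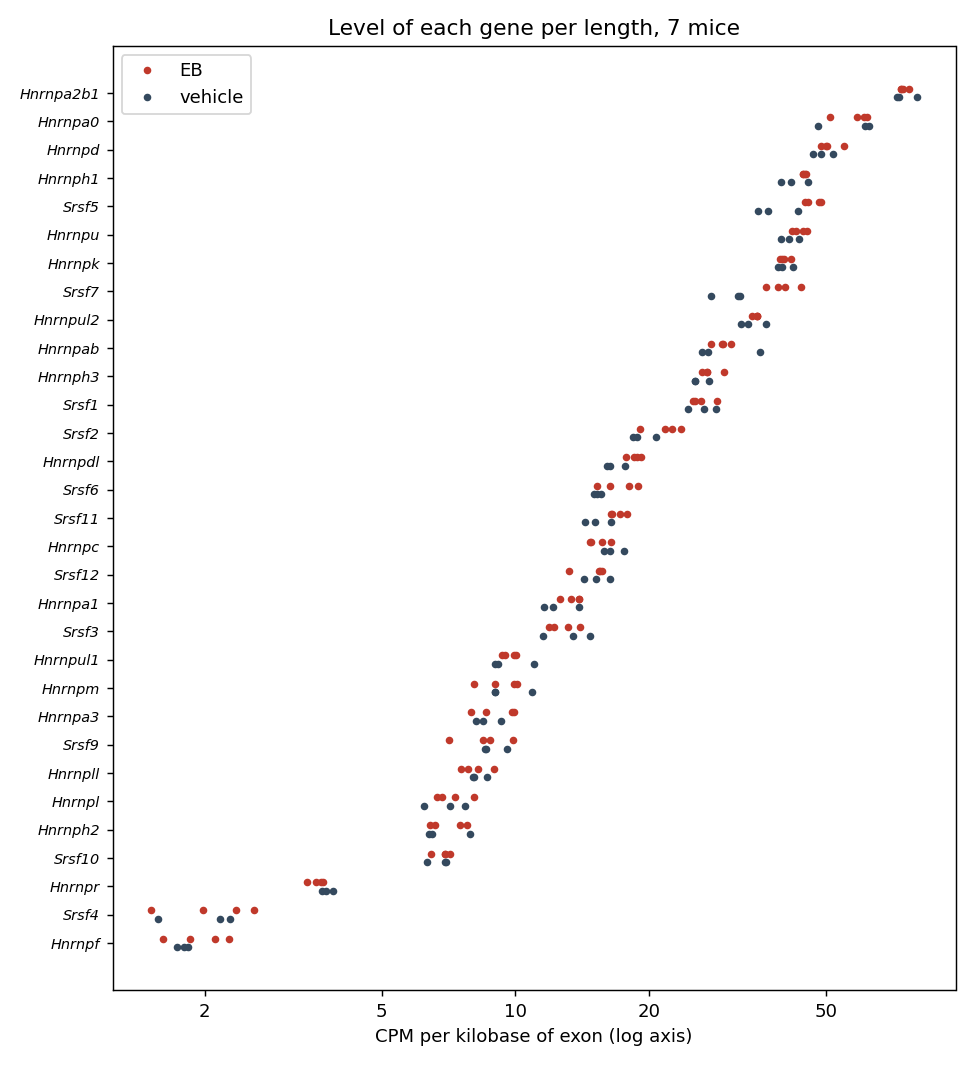
Level of each of the 31 genes in CPM per kilobase of exon on a log axis, 1 point per mouse, with EB mice (red) above vehicle mice (blue) in each row. Hnrnpa2b1 is highest at about 74.9 and Hnrnpf lowest at about 1.89, and Srsf7 and Srsf5 are genes whose EB points lie to the right of their vehicle points.

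Other genes of the splicing machinery were taken from lists chosen with earlier results of these data known. Of 26 tissue-specific splicing regulators, 1 was called, and it rose: Srrm4, whose neuronal SR-related protein promotes the inclusion of microexons. Srrm4 had 269, 216, 228 and 244 CPM in EB mice, against 107, 128 and 104 CPM in vehicle mice. Every EB value was far above every vehicle value, with means of 239 ± 22.8 CPM with EB and 113 ± 13.2 CPM with vehicle. The fold change was 2.12, or 1.08 ± 0.09 on the log2 scale (adjusted p = 7.29e-05, edgeR), and all 18 alternatives kept the call at 1.02 to 1.18. The list as a whole had 11 positive and 15 negative differences, median -0.01. At an unadjusted p under 0.05 in edgeR's test, 3 genes were higher and 2 lower, beside 4.69% and 3.85% of all tested genes. The positive differences of the list numbered 17 without vehicle 2 (median 0.04) and 16 with library totals alone. The 2 lower genes, Nova2 and Khdrbs3, named after their values were seen, had log2 changes of -0.36 ± 0.13 and -0.32 ± 0.13 (adjusted p = 0.357 and 0.482, edgeR).

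The SR-related proteins, which carry arginine and serine repeats without the full SR layout, had 19 of 21 genes positive, beside 8889 of all 18387 tested genes. The median log2 change of the 21 genes was 0.11, and 0 were called by edgeR. Their sum was 3322 to 3461 CPM in EB mice and 3057 to 3121 CPM in vehicle mice, without overlap. An unadjusted p under 0.05 in edgeR's test was reached by 4 of them (19.0%), Srrm1, Srrm2, Srek1 and Rsrc2, all with EB higher. Of all tested genes, 8.54% reached it, 4.69% with EB higher. DESeq2 called 2 of the 21 at an adjusted p under 0.05, beside 1.95% of all genes. Srrm1, a coactivator that bridges SR proteins and the spliceosome, had 157, 160, 156 and 164 CPM with EB and 131, 134 and 137 CPM with vehicle. Its groups were well separated, with a log2 change of 0.25 ± 0.06 (adjusted p = 0.0971, edgeR; adjusted p = 0.00718, DESeq2). Between 18 and 21 of the list were positive under every alternative tried.

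Among 11 kinases and importers of SR proteins, 9 were positive and 0 called, with a median of 0.06. The positive genes numbered 6 without vehicle 3, 7 without EB 2 or without vehicle 1, and 10 with library totals alone. An unadjusted p under 0.05 in edgeR's test was reached by 2 of the 11 (18.2%), beside 8.54% of all tested genes. Prpf4b, a kinase of the spliceosome, had 136, 140, 134 and 138 CPM with EB and 122, 122 and 119 CPM with vehicle, a log2 change of 0.18 ± 0.06 (adjusted p = 0.312, edgeR). The 34 core spliceosome genes were evenly split, 17 positive and 17 negative with a median of 0.00, 0 called and 0 at an unadjusted p under 0.05. Their smallest p belonged to Snrpd3, a component of the Sm ring, at 0.17 ± 0.09 (adjusted p = 0.665, edgeR). That list had 30 of 34 positive without vehicle 2 and 26 with library totals alone. Of 8 genes for hnRNPs under other symbols, 4 were positive (7 with library totals alone) and 0 called. The smallest p there was that of Syncrip, or hnRNP Q, at 0.21 ± 0.09 (adjusted p = 0.491, edgeR). Of 8 temperature-responsive genes, 5 were positive and 0 called, but 2 were positive without EB 1, 3 without EB 2 and 3 without vehicle 1. Hsph1, a heat shock chaperone, had 823 to 954 CPM with EB and 650 to 874 CPM with vehicle, at 0.26 ± 0.09 (adjusted p = 0.334, edgeR), and was called without vehicle 2 (adjusted p = 0.0365).

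**Figure D5:**
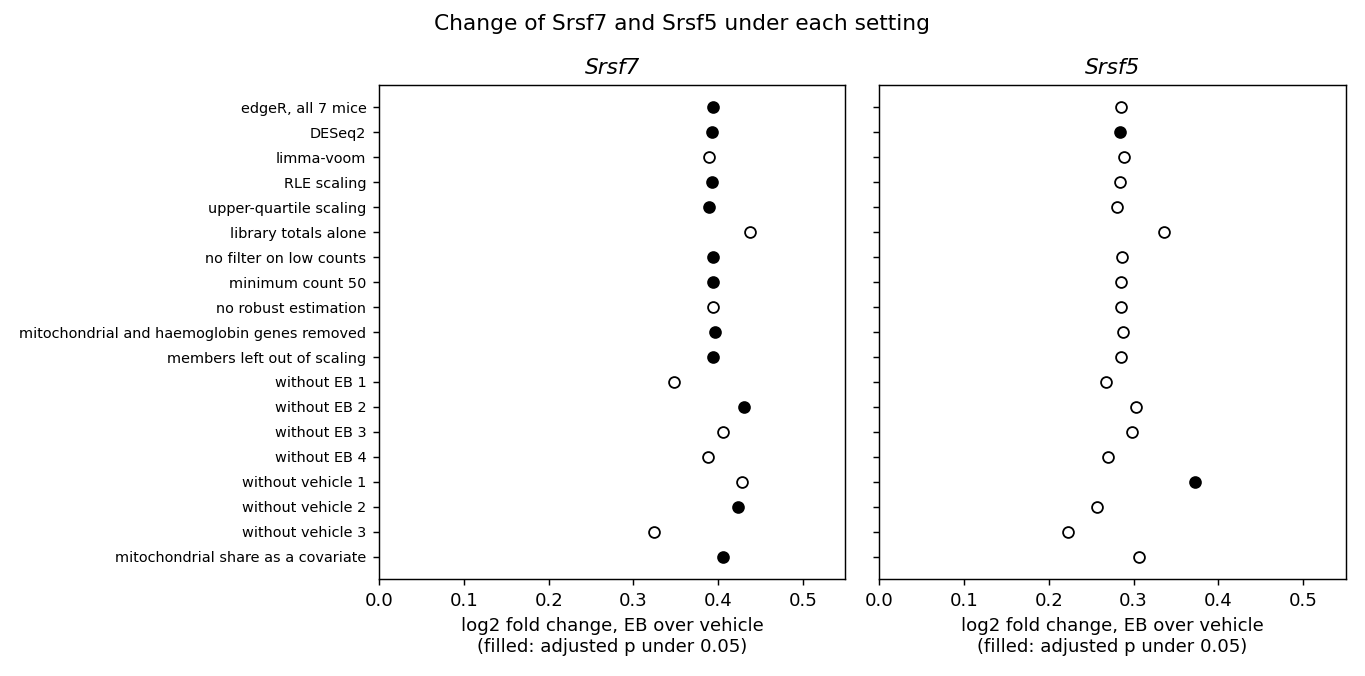
Log2 fold change of Srsf7 (left) and Srsf5 (right), EB over vehicle, under the reported setting and 18 alternatives, with filled points where the adjusted p was under 0.05. Srsf7 stays between 0.32 and 0.44 and is called under 10 alternatives, and Srsf5 stays between 0.22 and 0.37 and is called under DESeq2 and without vehicle 1.

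Library totals ran from 22311424 to 33302293 counts with EB and from 21037303 to 30909554 with vehicle, and the members' raw counts were 120 to 16692 per library. Pgr, a classical estrogen target, was higher in EB mice, at 207 ± 17.6 CPM against 82.2 ± 6.70 CPM with vehicle (adjusted p = 3.40e-06, edgeR), as were the other 3 estrogen-induced genes checked, although 3 of the 4 were called when EB 1, EB 3, EB 4, vehicle 1 or vehicle 3 was left out. The VMHvl markers Esr1 (192 and 223 CPM with EB and vehicle) and Fezf1 (128 and 140 CPM) were present, while Nr5a1, a marker of the whole nucleus, was low at 2.52 CPM with EB and 2.03 CPM with vehicle. Of the 10 VMHvl markers 4 were positive and 6 negative, and the 2 called, Pgr and Cckar, were both higher with EB and belong to the estrogen-induced list too. Of the uncalled VMHvl markers, those with an unadjusted p under 0.05 were Slc17a6, the glutamate transporter VGLUT2 (log2 0.34 ± 0.09, adjusted p = 0.132), Rprm (-0.74 ± 0.19, adjusted p = 0.186) and Adcyap1, which encodes PACAP (-0.24 ± 0.10, adjusted p = 0.468, edgeR). Summed markers of mural cells and fibroblasts were 200 to 438 CPM with EB and 188 to 731 CPM with vehicle, with 10 of 10 genes negative (median log2 -0.47) and 0 called. Vehicle 1 held the highest sum, and without it 9 of these 10 genes were positive, median 0.44, so their direction rests on that mouse. Endothelial markers (7 of 9 negative, median log2 -0.31, 0 called) summed to 90.7 to 119 CPM with EB and 106 to 154 CPM with vehicle. At an unadjusted p under 0.05 in edgeR's test, 4 of the 9 were lower and 1 higher, beside 3.85% and 4.69% of all tested genes. EB lay wholly below vehicle for 2 of the 9, beside 3.99% of all genes. Without EB 4, 1 of the 9 was called lower, where 128 of 18121 tested genes were called in either direction. Without the filter on low counts 1 was called lower, where 228 of 31222 genes were called in either direction. DESeq2 called 2 of the 9 lower, beside 0.68% of all tested genes, and the other alternatives called 0 lower. Astrocyte markers (8 of 8 negative, 0 called) summed to 5271 to 6654 CPM with EB and 6072 to 6764 CPM with vehicle. None of the 8 reached an unadjusted p under 0.05 in edgeR's test, and the groups overlapped for each. Of the 8, 2 were positive without EB 3. When vehicle 1, vehicle 2 or vehicle 3 was left out 1 was positive, as with library totals alone. Microglial markers (6 of 8 negative, 0 called) summed to 137 to 152 CPM with EB and 155 to 165 CPM with vehicle, without overlap. Gene by gene, EB lay wholly below vehicle for 1 of the 8, beside 3.99% of all genes. An unadjusted p under 0.05 in edgeR's test was reached by 1, with EB lower. DESeq2 called 1 lower, beside 0.68% of all tested genes. Oligodendrocyte markers (6 of 8 negative, but 4 without EB 4) summed to 800 to 977 CPM with EB and 929 to 1004 CPM with vehicle. Arcuate markers summed to 495 to 566 CPM with EB and 551 to 667 CPM with vehicle (6 of the 8 tested positive), with Kiss1 at 0 to 3 counts a library. The arcuate gene that was called, Isl1, which encodes a transcription factor, fell, with 29.7 ± 3.79 CPM with EB and 67.3 ± 18.2 CPM with vehicle (log2 -1.18 ± 0.16, adjusted p = 0.00247, edgeR). Pituitary markers (3 of the 4 tested negative) summed to 3.04 to 29.6 CPM with EB and 8.68 to 13.4 CPM with vehicle, and Prl and Gh were at 0 counts except in vehicle 3. Of those 4 pituitary genes 3 were positive without EB 1 or without EB 2, and 2 without EB 3 or without vehicle 1. Without EB 4, 3 pituitary genes were tested and 1 was called lower, beside 128 of 18121 tested genes called in either direction. The part of these cell types in the differences of Srsf7, Srrm4 and the other genes above was not tested.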

How the data were processed

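The authors deposited raw read counts per gene for each of the 7 libraries, whole numbers for 48321 genes without normalisation or rows naming no gene. Per the labels' protocols, each mouse gave 15 ng of RNA to a Tecan/NuGEN Trio preparation. HISAT2, HTSeq, DESeq2 and mm10 are named, per the submitters' processing notes. For versions, strand use and multiply mapped reads the setting is not given in these sources.

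Genes were kept with filterByExpr at a minimum count of 10, which left 18387 of 31222 with any count. After TMM scaling the test was edgeR 4.0.16 in R 4.3.3 (estimateDisp, robust glmQLFit, glmQLFTest, no covariate, 4 EB against 3 vehicle mice), with Benjamini-Hochberg adjustment over all tested genes and calls under 0.05. The script was checked on simulated counts with known changes. Standard errors are the absolute log2 change over the square root of F, and the 95% intervals built on them are approximate. CPM values are means ± SD over mice. Alternatives were DESeq2 1.42.0, limma-voom (limma 3.58.1), other scalings, filters and fits, each library left out, an adjusted p under 0.1 and, added after the data were seen, the mitochondrial share as a covariate. Replicate pairs differed by a chi-square per degree of freedom of 17.0 to 166, so none differed by less than sampling noise. Replicate numbers only name mice.

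Exon lengths and overlaps came from GENCODE M21 (GRCm38, that is mm10), promoters from RefSeq (GRCm38.p6), and pseudogene copies from blastn 2.17.0 at 98% identity or more over at least 100 bases. Members and lists were chosen with earlier results of these data known. Genes named are Srsf7, the 14 members with the smallest p, the highest member per length of each class, and, of each other splicing or temperature list, the called gene or the smallest p. Outside this rule, and with values in view, Srsf1, Srsf3, Srsf4, Srsf9, Srsf10, Srsf12, Hnrnpa0 and Hnrnpf were given to complete classes and the order of levels, and Nova2, Khdrbs3, single marker genes and members whose sign varied were added.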

Additional observations from a re-analysis of the deposited data

Results flagged for a closer look

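In 35 groups of 4 EB values, those of the 31 members and of 4 library totals (the SR and hnRNP sums and the members' and mitochondrial shares), the most extreme mouse was set against the others by Dixon's ratio, which chance passes in about 1 group in 20. Srsf12 was marked for its lowest EB mouse, EB 2, at 41.5 CPM, against 48.7 to 49.4 CPM in the other EB mice and 44.9 to 51.3 CPM in vehicle mice. Hnrnpul2 was marked for its lowest EB mouse, EB 3, at 243 CPM, while the other EB mice had 248 to 249 CPM and the vehicle mice 229 to 260 CPM. The EB mice of Hnrnpul2 lie close together, so a small distance passed.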

How the results depend on the processing

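The count of members called higher with EB, 1 in the reported fit, was 2 with DESeq2, 0 with limma-voom, 0 with library totals alone and 0 without robust estimation, and it ran from 0 to 1 when each library was left out. It was 1 under the other scalings and filters, with the mitochondrial covariate and at an adjusted p under 0.1. Without vehicle 1 the member called was Srsf5, not Srsf7. The count called lower was 0 under every setting. Srsf7 missed the threshold with limma-voom (adjusted p = 0.0592), library totals alone (log2 0.44, adjusted p = 0.175) and no robust estimation (adjusted p = 0.0542), and the causes were not tested. Another sign appeared under at least 1 alternative for 16 of the 31 members, whose reported log2 changes were all 0.07 or smaller in size, and none was called with it; Srsf7, Srsf5, Srsf11, Hnrnpdl, Srsf6 and Srsf2 are among the 15 that kept theirs. Of the 16, library totals alone gave a log2 change of 0.031 for Hnrnpa2b1, 0.013 for Hnrnpab, 0.035 for Hnrnpk, 0.020 for Hnrnpll, 0.034 for Hnrnpul1, 0.030 for Srsf1 and 0.0068 for Srsf12, and removing mitochondrial and haemoglobin genes gave 0.00020 for Hnrnpul1. Leaving out each library in turn gave log2 changes of -0.093 to 0.091 for Hnrnpa0, -0.039 to 0.041 for Hnrnpa2b1, -0.11 to 0.12 for Hnrnpab, -0.029 to 0.14 for Hnrnph2, -0.031 to 0.029 for Hnrnpk, -0.042 to 0.12 for Hnrnpl, -0.068 to 0.016 for Hnrnpll and -0.11 to 0.038 for Hnrnpm. The corresponding ranges were -0.055 to 0.097 for Hnrnpul1, -0.012 to 0.086 for Hnrnpul2, -0.065 to 0.040 for Srsf1, -0.023 to 0.050 for Srsf10, -0.079 to 0.025 for Srsf12, -0.14 to 0.034 for Srsf3, -0.081 to 0.20 for Srsf4 and -0.14 to 0.023 for Srsf9. The causes of these changes of sign were not tested. Calls over all genes were 169 in the reported fit, 359 with DESeq2 and 94 without vehicle 3; the other settings gave 103 to 228. No paired analysis was made, because each mouse was given either EB or vehicle and the labels name no pairs of mice. The numbers used here only name mice in the order of listing, so an EB and a vehicle mouse with the same number are not a pair. The intervals rest on the spread between 4 and 3 mice, gene-level counts do not show isoforms, and 7 members share near-identical sequence with a pseudogene.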
